A study of Mus musculus with 4 samples.

Results

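The 42 genes described here are genes that interferons induce in mouse cells. They were taken as a list that was chosen with earlier results of these data known, so that shares of its members are no independent result. Each gene was read from the brightest of its probe sets by the mean of all arrays. The list was split into 26 targets of type I interferon, 10 GTPases of the interferon gamma response and 6 genes that respond to both types of interferon. Of the 42 members, 37 were named by a probe set of their own among 18193 named genes. The signals of the remaining 5 (Isg15, Ifi44, Gbp4, Gbp5 and Tgtp1) were not analysed here. A gene was called measured when its signal averaged at least 200 over the 4 arrays, which held for 28 members and for 8438 genes in all.

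The members were compared between cultured mouse T helper cells sorted for CD30, the TNF receptor family protein that Tnfrsf8 encodes. CD30high Th17, CD30low Th17, CD30high Th1 and CD30low Th1 cells were profiled on 1 array each, so that no difference has a replicate error or a p-value. Each culture was started from CD4 T cells of the spleen, CD44low in the labels, and lasted 6 days. Th17 cultures held IL-6, IL-1beta and IL-23 (10 ng/ml each) with antibodies to IL-4 and to IFN-gamma (10 µg/ml each), whereas Th1 cultures held IL-2 (30 U/ml), IL-12 (100 U/ml) and 1 µg/ml of the antibody to IL-4. By the methods, the T cells carried a transgenic receptor for ovalbumin and were stimulated with its peptide on irradiated splenocytes depleted of T cells. The methods name BALB/c and C57BL/6 mice and give 1 range of ages of young adults for all mice of the study, but the strain, transgene and sex behind each array were not given in the sources used here. The labels describe the starting cells as CD62Lhi for the CD30high samples and CD62Llow for the CD30low samples, while the methods describe naive cells throughout, so that sort and starting cells cannot be told apart if the labels hold.

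Interferons are cytokines of antiviral defence. Type I interferons signal through the receptor chains IFNAR1 and IFNAR2 and act on genes with interferon-stimulated response elements, to which STAT2 and IRF9 are recruited, whereas interferon gamma signals through IFNGR1 and IFNGR2 and acts on genes with gamma-activated sites. Many target genes respond to both. Interferon gamma is the signature cytokine of Th1 cells, and the guanylate binding proteins and immunity-related GTPases that it induces attack the membranes around intracellular parasites and bacteria.

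The arrays were checked against the sort gene and marker genes. Tnfrsf8, the gene of CD30, had 132 in CD30high and 34.9 in CD30low Th17 cells, and 51.1 in CD30high and 13.3 in CD30low Th1 cells. It was thus brighter in the CD30high cells of either lineage but below 100 on 3 of the 4 arrays, so that these signals are no firm check of the sort, least of all in Th1 cells. All 5 T cell markers were above 100 on every array. The Th17 cytokine gene Il17a had signals of 14443 and 1398 in CD30high and CD30low Th17 cells and was below 100 in both Th1 populations. Markers of other cells were mostly dim, with all 4 dendritic cell markers below 100 on every array. The 4 named neutrophil markers summed to 2093 in CD30high and 8490 in CD30low Th17 cells, and each was below 100 in both Th1 populations. NK and CD8 cell markers summed to 598 in CD30high and 857 in CD30low Th17 cells, and to 4954 in CD30high and 6986 in CD30low Th1 cells. Klrd1 alone made up most of the Th1 sums, with 4360 in CD30high and 6199 in CD30low Th1 cells. Cd8b1 had 541 and 703 in the same order, and Ncr1 and Cd8a were below 100 on every array. The only technical spread at hand was that between the 2 brightest probe sets of a gene, whose log2 ratios gave an SD of 0.225 to 0.327 for a single probe set in the 4 comparisons (3500 genes). Signals below 100 were set to 100, and a member counted as past the rule at a fold of 2 or more with at least 300 on the brighter array. A fold against a signal set to 100 is a lower bound, and in sorted cells less RNA per cell and fewer expressing cells cannot be told apart.

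To ask whether CD30high Th17 cells differ from CD30low Th17 cells in interferon-induced genes, the arrays of the 2 populations were compared. Of the 28 measured members, 1 was higher and 7 were lower in CD30high cells, which is 28.6% of them, against 6.39% of all measured genes past the same rule (3.22% higher, 3.16% lower). The lower members were Ifi209, Rtp4, Iigp1, Calhm6, Zbp1, Isg20 and Ifit2, and the higher member was Ifitm1. Since the study has primers for Rtp4 and Calhm6, the share of 28.6% may in part restate a choice made on the same values. It is no independent result. Of the 28 ratios 20 were below 1 (71.4%, against 49.0% of all measured genes), and the median log2 ratio was -0.40, against 0.01 for all measured genes. CD30high Th17 cells had the lowest of the 4 signals for 17 of the 28 members (60.7%), which was the case for 29.6% of all measured genes.

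**Figure D1:**
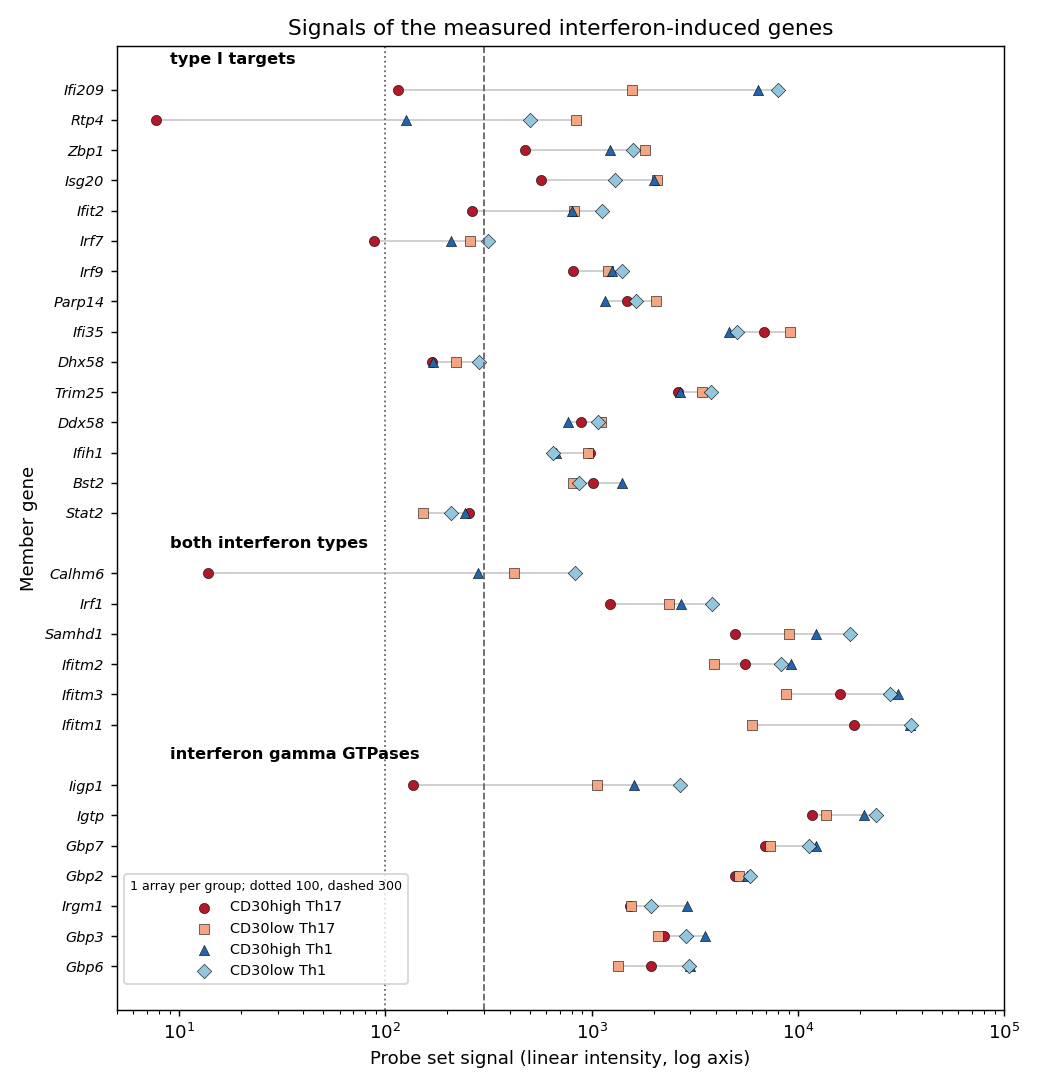
Signals of the 28 measured members (y axis) on a log axis (x axis, linear intensity), 1 point per array and 1 array per group, with a grey line from the lowest to the highest array. CD30high Th17 cells lie at the low end for 17 members, and for Rtp4 and Calhm6 both CD30high arrays lie below both CD30low arrays.

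Ifi209, a member of the PYHIN family of DNA-binding proteins, had the largest fold with signals floored at 100. Its signal was 115 in CD30high and 1564 in CD30low Th17 cells (13.7-fold lower), and 6379 in CD30high and 7988 in CD30low Th1 cells. Its other probe set had 34.0 in CD30high and 138 in CD30low Th17 cells, and 426 in CD30high and 535 in CD30low Th1 cells. Both probe sets thus had the same order over the arrays, with both Th17 arrays below both Th1 arrays. Whether they tell Ifi209 from its neighbouring paralogs was not tested.

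Rtp4, which encodes an interferon-induced protein that assists the transport of receptors to the cell surface, had a signal of 7.69 in CD30high and 842 in CD30low Th17 cells (at least 8.42-fold lower). In the Th1 cells it had 127 in CD30high and 503 in CD30low cells (3.97-fold lower). The 2 CD30high arrays were the dimmest in either lineage, and in Th1 cells the log2 ratio of -1.99 was the lowest of all 8438 measured genes. A further probe set of Rtp4 was below 100 on every array and adds no check. Calhm6, the gene of a membrane channel of the calcium homeostasis modulator family, behaved in the same way. It had 13.9 in CD30high and 420.0 in CD30low Th17 cells (at least 4.2-fold lower), and 280.0 in CD30high and 829 in CD30low Th1 cells (2.96-fold lower). No further probe set was named for Calhm6. Rtp4 and Calhm6 were the only members past the rule in both lineages. The study lists quantitative PCR primers for both genes, with Calhm6 under its older symbol Fam26f. By its text, the study picked genes that differed in both lineages on arrays of the same sorted populations. It reports that these differences held by quantitative PCR in CD30high and CD30low cells. Whether Rtp4 and Calhm6 are among these genes is not stated in the text used here, and the primer list also covers genes measured in lung.

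Among the sensors, Zbp1, which recognises Z-form nucleic acids and can start necroptosis, had 475 in CD30high and 1804 in CD30low Th17 cells (3.8-fold lower). In the Th1 cells it had 1228 in CD30high and 1585 in CD30low cells. A further probe set had 207 and 907 in CD30high and CD30low Th17 cells, and 717 and 972.5 in CD30high and CD30low Th1 cells. The CD30high Th17 array was the lowest with either probe set, and the other 3 arrays lay close together. The cytosolic RNA sensors were under the rule by their brightest probe sets. Ddx58, which encodes RIG-I, had 892 in CD30high and 1115 in CD30low Th17 cells (1.25-fold), and Ifih1, which encodes MDA5, had 980 in CD30high and 960.4 in CD30low Th17 cells. A dimmer probe set of Ddx58 had 123 in CD30high and 317 in CD30low Th17 cells, a 2.57-fold lower signal that by itself would pass the rule, and 208 in CD30high and 281 in CD30low Th1 cells. All 3 probe sets of Ddx58 were lower in CD30high Th17 cells, and they disagree on the size. Dhx58, the gene of the related helicase LGP2, stayed below 300 on every array.

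Of the antiviral effectors, Isg20, an exonuclease that degrades RNA, had 569 in CD30high and 2064 in CD30low Th17 cells (3.63-fold lower), but 2007 in CD30high and 1297 in CD30low Th1 cells. The 2 lineages thus ran in opposite directions for Isg20, with 1.55-fold more signal in CD30high Th1 cells, which does not reach the rule. Ifit2, an RNA-binding protein with tetratricopeptide repeats, had 262 in CD30high and 820 in CD30low Th17 cells (3.13-fold lower), and 799 in CD30high and 1124 in CD30low Th1 cells. Bst2, which tethers virus particles to the cell surface, was not lower, with 1012 in CD30high and 814 in CD30low Th17 cells. Classical effectors were dim throughout. The genes Ifit1, Mx2, Oasl2 and Rsad2 were below 100 on all 4 arrays, and Ifit3, Mx1, Oas1a and Oasl1 did not exceed 273 on any array. In dim genes no difference between the populations could be read. Usp18, which removes ISG15 from proteins and restrains the type I receptor, had 42.5 in CD30high and 252 in CD30low Th17 cells and so stayed under the signal limit.

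The transcription factors had smaller differences. Irf7, which drives the production of type I interferons, had 87.8 in CD30high and 256 in CD30low Th17 cells (at least 2.56-fold), under the signal limit of 300. Irf1, a factor that interferon gamma induces strongly, had 1224 in CD30high and 2377 in CD30low Th17 cells, a 1.94-fold difference just outside the rule. Irf9 had 811 and 1197 in CD30high and CD30low Th17 cells. Stat2, its partner, ran the other way with 254 in CD30high and 153 in CD30low Th17 cells, but a further probe set had 170.7 and 171. No direction can therefore be given for Stat2.

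**Figure D2:**
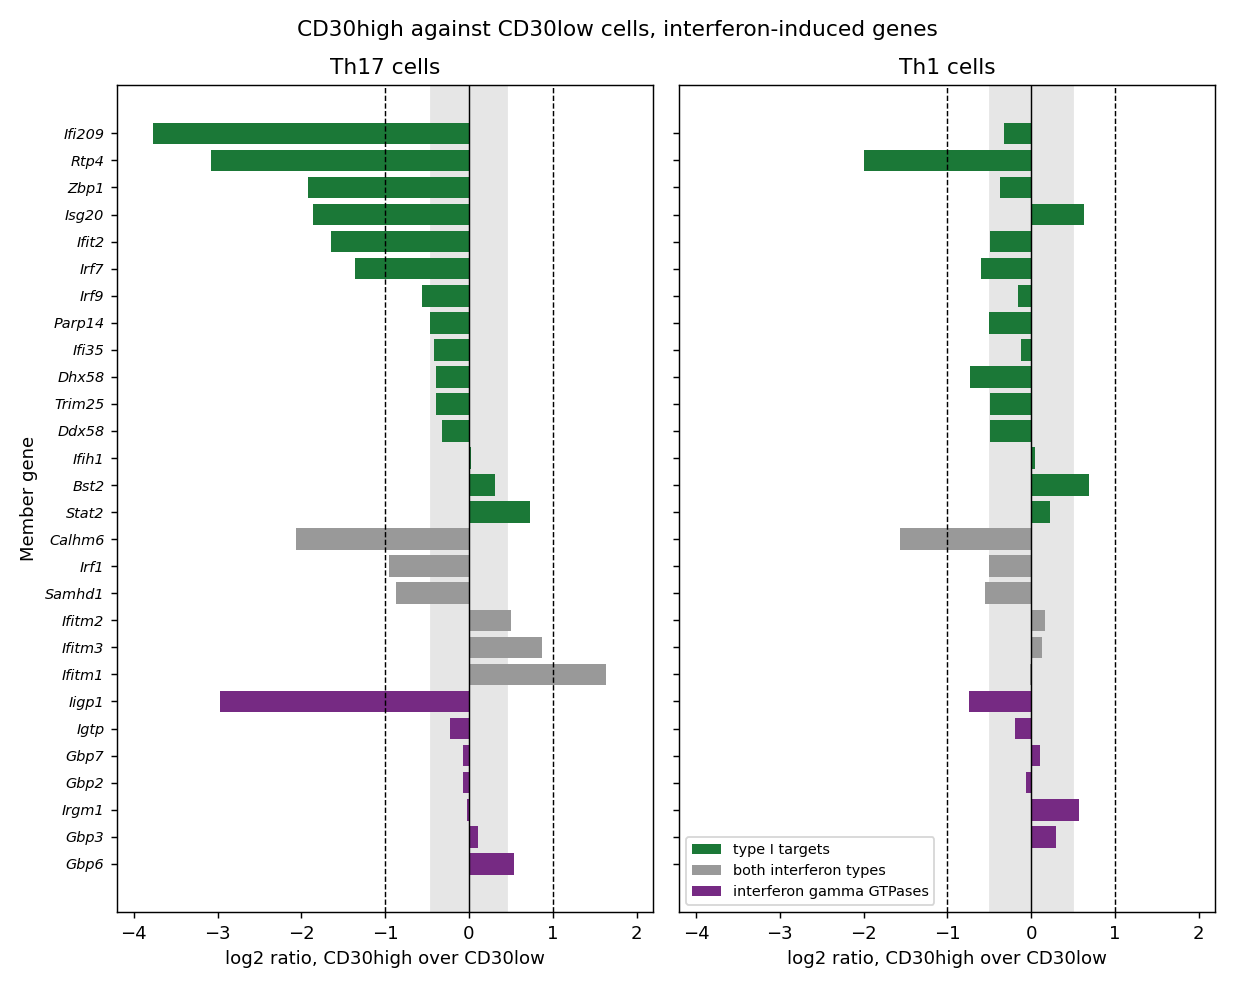
The x axis gives the log2 ratio of CD30high to CD30low signals for the 28 measured members (y axis) in Th17 (left) and Th1 cells (right), 1 array per group. Dashed lines mark 2-fold and the grey band spans 2 SD per probe set on either side of 0; 7 bars on the left and 2 on the right belong to members called lower, and Ifitm1 alone is called higher.

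Of the GTPases of the interferon gamma response, only Iigp1 passed the rule between the CD30 populations. Iigp1, an immunity-related GTPase that acts on the vacuole of Toxoplasma, had 136 in CD30high and 1065 in CD30low Th17 cells (7.82-fold lower), and 1604 in CD30high and 2682 in CD30low Th1 cells. Its other probe set had 50.2 in CD30high and 515 in CD30low Th17 cells, and 915 in CD30high and 1066 in CD30low Th1 cells. Each of the remaining 6 GTPases measured was under the rule in both lineages. Gbp2, for example, had 4927 and 5179 in CD30high and CD30low Th17 cells, and Igtp had 11692 and 13721. A further probe set of Gbp2 had 4709 and 4666, the opposite order and a smaller difference than the spread between probe sets. The median log2 ratio in Th17 cells was -0.07 for the 7 measured GTPases and -0.47 for the 15 measured type I targets, of which 5 were lower and none was higher. The 6 genes of both interferon types had a median of -0.18. The medians of type I targets and GTPases differ by 0.40 on the log2 scale, and no test of that difference was available. The probe sets of guanylate binding proteins may detect more than 1 member of this family, which was not tested.

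Ifitm1 went against the other called members. It encodes a membrane protein that blocks the entry of viruses, and its signal was 18630.4 in CD30high and 6006 in CD30low Th17 cells (3.1-fold higher). Its neighbours on chromosome 7 had the same order without reaching the rule. Ifitm3 had 15973 in CD30high and 8755 in CD30low Th17 cells (1.82-fold), and Ifitm2 had 5518 and 3903 (1.41-fold). In Th1 cells CD30high and CD30low arrays were alike, with Ifitm1 at 35073 and 35425 and Ifitm3 at 30450.3 and 27844. Whether the probe sets tell these similar genes apart was not tested.

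To set the sequences of these genes beside their signals, the promoters in the RefSeq table (GRCm38.p6, 250 bases before to 50 after each start) were searched for 2 motifs on both strands. The core of the interferon-stimulated response element was taken as GAAA, any 2 bases and GAAA again, and the core of the gamma-activated site as TTCNNNGAA, which reads the same on either strand and was counted once. Promoters were at hand for 32 of the 42 members. The response element core was present in 19 of the 32 (59.4%), against 3.99% of the 27025 genes in the table, and the gamma-activated core in 12 (37.5%, against 9.55%). All 7 GTPases with a promoter held the response element core, as did 9 of 19 type I targets and 3 of 6 genes of both types. Of the members called lower in CD30high Th17 cells, Calhm6 held the response element core, Isg20 and Ifit2 held the gamma-activated core alone, and Ifi209 held neither in this window. Rtp4, Iigp1 and Zbp1 are not in the table. The 250 bases before the start are shown for these 3 genes with a match and for Gbp7 and Igtp, the first measured GTPases on the list with both motifs. Gbp7 and Igtp were picked for holding both, so their motif content cannot be compared with that of the genes that were lower. Gbp2, Gbp3 and Irgm1, likewise under the rule between the CD30 populations, held the response element core alone. Motif matches are in capitals.
Isg20: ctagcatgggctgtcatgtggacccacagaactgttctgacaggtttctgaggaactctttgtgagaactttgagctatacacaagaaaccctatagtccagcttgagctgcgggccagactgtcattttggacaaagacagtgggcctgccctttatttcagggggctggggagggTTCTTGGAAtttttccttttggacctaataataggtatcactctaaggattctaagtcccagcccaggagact
Ifit2: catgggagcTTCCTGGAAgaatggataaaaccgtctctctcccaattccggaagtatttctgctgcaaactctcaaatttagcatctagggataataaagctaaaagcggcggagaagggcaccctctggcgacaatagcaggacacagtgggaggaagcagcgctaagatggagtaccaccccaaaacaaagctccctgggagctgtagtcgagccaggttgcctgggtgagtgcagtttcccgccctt
Calhm6: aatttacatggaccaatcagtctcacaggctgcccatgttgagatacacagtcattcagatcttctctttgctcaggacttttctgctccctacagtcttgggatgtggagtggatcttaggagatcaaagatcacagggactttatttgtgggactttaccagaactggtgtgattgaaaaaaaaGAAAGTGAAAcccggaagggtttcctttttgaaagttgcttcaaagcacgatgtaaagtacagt
Gbp7: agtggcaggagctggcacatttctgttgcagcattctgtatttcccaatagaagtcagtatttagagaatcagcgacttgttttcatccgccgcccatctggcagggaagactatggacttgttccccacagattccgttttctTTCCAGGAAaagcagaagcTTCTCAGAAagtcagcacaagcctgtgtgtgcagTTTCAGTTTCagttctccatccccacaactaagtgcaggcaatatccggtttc
Igtp: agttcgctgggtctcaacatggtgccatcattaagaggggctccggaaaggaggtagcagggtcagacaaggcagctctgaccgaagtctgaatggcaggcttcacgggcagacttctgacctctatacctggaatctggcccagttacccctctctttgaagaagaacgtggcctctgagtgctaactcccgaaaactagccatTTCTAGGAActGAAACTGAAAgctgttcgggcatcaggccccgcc
The windows are chr7:78913174-78913423, plus strand, for Isg20, chr19:34550444-34550693, plus strand, for Ifit2, chr10:34127973-34128222, minus strand, for Calhm6, chr3:142530086-142530335, plus strand, for Gbp7 and chr11:58199306-58199555, plus strand, for Igtp. Counted back from the start, the match of Calhm6 begins at base -64, that of Isg20 at -73 and that of Ifit2 at -241. Isg20 has 3 starts and Ifit2 has 2 starts in the table, and only the windows with a match are shown. Gbp7 holds the gamma-activated core at -106 and -87 and the response element core at -53 on the opposite strand, and Igtp holds them at -45 and -34. A match describes these letters and not a bound site.

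To ask whether this difference extends to Th1 cells, their CD30high array was set against their CD30low array. Only Rtp4 and Calhm6 were lower and no member was higher, which is 7.14% of the 28 measured members, against 1.1% of all measured genes (0.699% higher, 0.403% lower). Since the study has primers for both genes, this share may restate a choice made on the same values and is no independent result. The median log2 ratio of all members was -0.18, against -0.02 for all measured genes, with 18 of 28 ratios below 1 (64.3%, against 52.9% of all measured genes). Type I targets had a median of -0.37 and the GTPases a median of 0.01. Several type I targets had ratios of similar size below the rule, such as Parp14, an ADP-ribosyltransferase, with 1162 in CD30high and 1641 in CD30low Th1 cells, and Trim25, a ubiquitin ligase of the RIG-I pathway, with 2690.1 and 3769. The same 2 genes had 1490.3 and 2061 (Parp14) and 2612 and 3440 (Trim25) in CD30high and CD30low Th17 cells. A dimmer probe set of Parp14 had 178 in CD30high and 125 in CD30low Th1 cells, the opposite order to the brightest. In Th17 cells it had 120 in CD30high and 285 in CD30low cells, the same order as the brightest. Bst2 had the highest ratio of the members in Th1 cells, with 1406 in CD30high and 868 in CD30low cells (1.62-fold), under the rule.

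The neutrophil marker sum moved in the same direction as the 7 lower members in Th17 cells, being lower in CD30high cells. S100a8, the brightest of these markers, had 1210 in CD30high and 5192 in CD30low Th17 cells. Its part in the Th17 differences was not tested. In Th1 cells the 4 neutrophil markers were all below 100 on both arrays. Of the 7 members lower in CD30high Th17 cells, only Rtp4 and Calhm6 passed the rule in Th1 cells. Summed T cell markers were 31631 in CD30high and 32374 in CD30low Th17 cells, and 38473 in CD30high and 44014 in CD30low Th1 cells. The near-equal Th17 sums hide opposite differences. Cd28 had 15882 in CD30high and 9674 in CD30low Th17 cells, whereas the other T cell markers were lower in CD30high Th17 cells, such as Cd3g with 8404 against 13121.

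Next, Th17 cells were compared with Th1 cells at the same CD30 level. These comparisons use the same 4 arrays as the CD30 comparisons and are not independent of them. Among CD30low cells, 6 of 28 measured members were lower and none was higher in Th17 cells, which is 21.4%, against 8.25% of all measured genes (3.05% higher, 5.2% lower). Among CD30high cells, 7 were lower and none was higher (25%, against 10.6% of all measured genes, 4.28% higher and 6.29% lower). The median log2 ratio over all members was -0.41 in CD30low and -0.78 in CD30high cells. Th17 and Th1 cells differed in culture conditions and also in Y-linked transcripts. Eif2s3y had 9.39 and 1.41 in CD30high and CD30low Th17 cells, and 1640.0 and 1784 in CD30high and CD30low Th1 cells. Kdm5d and Uty were likewise below 100 in both Th17 and above 300 in both Th1 arrays. Xist, which is expressed from the inactive X chromosome of females, was bright on all 4 arrays, with 22613 and 22350.0 in CD30high and CD30low Th17 cells, and 16222 and 14620.4 in CD30high and CD30low Th1 cells. The Th1 arrays thus held transcripts of both kinds, and lineage cannot be told apart from this difference in starting material.

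By their brightest probe sets, all 7 measured GTPases were dimmer in Th17 than in Th1 cells at either CD30 level, with medians of -0.63 among CD30low and -0.82 among CD30high cells. The medians of the type I targets were -0.09 and -0.34 in the same order. They depended on the settings, with 0.06 among CD30low cells when a mean signal of 500 was required, and -0.47 to -0.04 among CD30high cells over the alternatives. The medians of the genes of both types were -1.04 at either level. Most GTPases were under the 2-fold limit. A further probe set of Gbp2 had 4709 in CD30high Th17 and 4557 in CD30high Th1 cells, the opposite order to its brightest probe set. Gbp7 had 6952 in CD30high Th17 and 12244 in CD30high Th1 cells, and Igtp had 11692 in CD30high Th17 and 20812 in CD30high Th1 cells. Gbp6 passed the rule among CD30low cells, with 1335 in Th17 and 2975 in Th1 cells (2.23-fold lower), and a further probe set had 687 in Th17 and 1703 in Th1 cells. Among CD30high cells its brightest probe set was 1.55-fold lower, under the rule. The further probe set had 900 in CD30high Th17 and 2372 in CD30high Th1 cells, a 2.63-fold lower signal that by itself would pass. For Gbp6 a pattern restricted to CD30low cells can therefore not be given. Iigp1 passed at both levels, 2.52-fold lower among CD30low and 11.8-fold lower among CD30high cells.

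**Figure D3:**
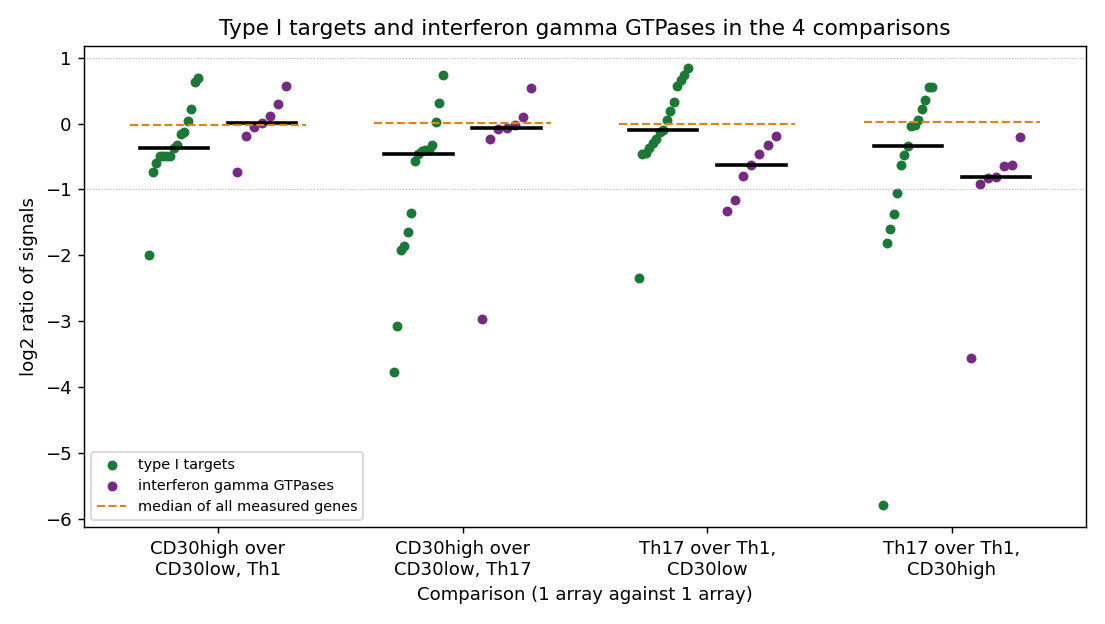
Log2 ratios of signals (y axis) of the 15 measured type I targets and the 7 measured interferon gamma GTPases in the 4 comparisons (x axis), 1 array against 1 array. Points are genes, black bars group medians and dashed lines the median of all measured genes; the GTPase median is 0.01 and -0.07 in the CD30 comparisons and -0.63 and -0.82 in the lineage comparisons.

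The Ifitm genes were lower in Th17 cells, and more so among CD30low cells. In CD30low cells Ifitm1 had 6006 in Th17 and 35425 in Th1 cells (5.9-fold lower), Ifitm3 had 8755 in Th17 and 27844 in Th1 cells (3.18-fold lower) and Ifitm2 had 3903 in Th17 and 8315 in Th1 cells (2.13-fold lower). In CD30high cells the folds were 1.88, 1.91 and 1.69 for Ifitm1, Ifitm3 and Ifitm2, all under the rule. By their brightest probe sets, Samhd1, which hydrolyses deoxynucleotides, and Irf1 had the opposite pattern and passed the rule among CD30high but not CD30low cells. Samhd1 had 4947 in CD30high Th17 and 12266 in CD30high Th1 cells (2.48-fold lower), and Irf1 had 1224 in CD30high Th17 and 2714 in CD30high Th1 cells (2.22-fold lower). Among CD30low cells both were under the rule by these probe sets, with Samhd1 at 9017 in Th17 and 17910.3 in Th1 cells (1.99-fold lower) and Irf1 at 2377 in Th17 and 3851 in Th1 cells. All 4 further probe sets of Samhd1 were dimmer in Th17 than in Th1 cells among CD30high cells. Among CD30low cells 1 of them had 248 in Th17 and 701 in Th1 cells (2.82-fold lower). Another had 408 in Th17 and 864 in Th1 cells (2.12-fold lower), and both differences pass the rule. The others were 1.37-fold and 1.43-fold lower. For Samhd1 a pattern restricted to CD30high cells can therefore not be given. In the CD30 comparison of Th17 cells the probe sets of Samhd1 disagreed, since the brightest was 1.82-fold and another 2.27-fold lower in CD30high cells, while 1 had 498 in CD30high and 408 in CD30low cells.

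Ifi209 was lower in Th17 cells at both levels, 5.11-fold among CD30low and 55.7-fold among CD30high cells. The log2 ratio among CD30high cells, -5.80, was the lowest of all measured genes. Zbp1, Isg20 and Ifit2 passed the rule among CD30high cells alone, 2.59-fold, 3.53-fold and 3.05-fold lower in Th17 cells, and their signals in CD30low cells were 1.14-fold, 1.59-fold and 0.729-fold those of Th1 cells. Some type I targets were brighter in Th17 cells without reaching the rule. Ifi35 had 9124 in CD30low Th17 and 5070.3 in CD30low Th1 cells, and Ifih1 had 960.4 in CD30low Th17 and 648 in CD30low Th1 cells.

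Other genes of the pathway were examined in a list of 50 genes, of which 37 were measured. Among the ligands, Ifng had 76.0 and 106 in CD30high and CD30low Th17 cells, and 3423 and 2506 in CD30high and CD30low Th1 cells. The type I genes Ifnb1 and Ifna4 were below 100 on every array. The chains of the interferon gamma receptor ran in opposite directions. Ifngr1 had 1778 and 3259 in CD30high and CD30low Th17 cells, and 7896 and 8907 in CD30high and CD30low Th1 cells. Ifngr2 had 636 and 855 in CD30high and CD30low Th17 cells, and 94.7 and 110 in CD30high and CD30low Th1 cells, so that it was 7.79-fold higher in Th17 cells among CD30low cells and at least 6.36-fold higher among CD30high cells. A dimmer probe set of Ifngr2 had the same direction with smaller folds, at least 1.79-fold among CD30low and 1.92-fold among CD30high cells. Socs1, an inhibitor of the receptor kinases, was also brighter in Th17 cells, with 819 and 967 in CD30high and CD30low Th17 cells, and 222 and 215 in CD30high and CD30low Th1 cells.

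**Figure D4:**
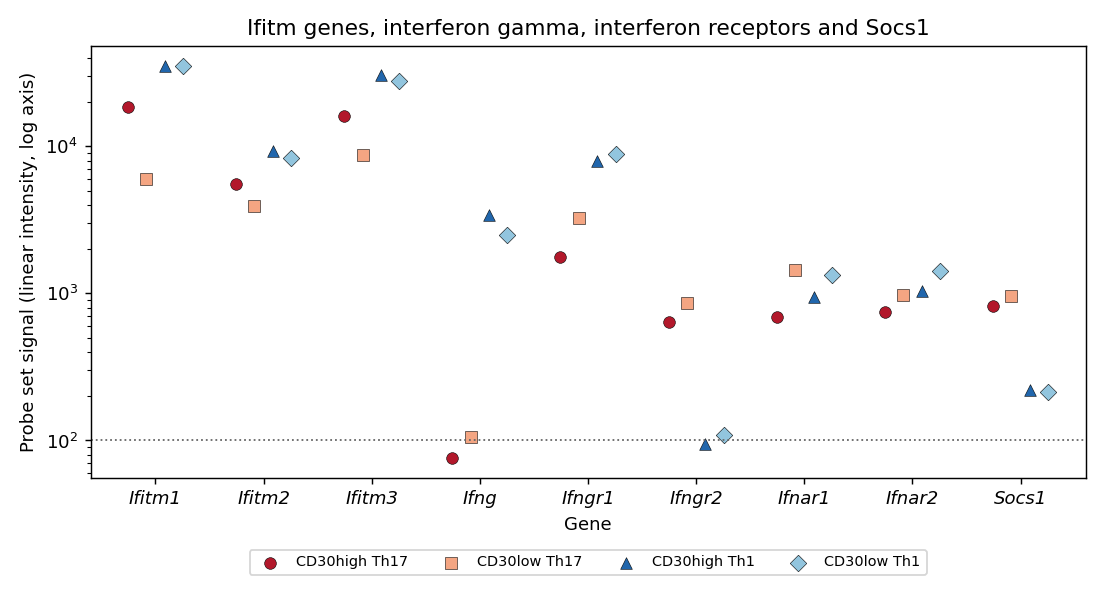
Signals (y axis, linear intensity on a log axis; dotted line at 100) of the 3 Ifitm genes, Ifng, 4 interferon receptor chains and Socs1 (x axis), 1 point per array. The Ifitm genes, Ifng and Ifngr1 are brighter in both Th1 arrays, and Ifngr2 and Socs1 in both Th17 arrays.

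In the CD30 comparison of Th17 cells, 6 of the 37 measured pathway genes were lower in CD30high cells and none was higher (16.2%, against the 6.39% of all measured genes). They were the further targets Ifi27l2a, Xaf1, Slfn1 and Slfn2, the receptor chain gene Ifnar1 and the inhibitor gene Socs3. Ifi27l2a, the gene of a small mitochondrial protein, had 2582 in CD30high and 15940 in CD30low Th17 cells (6.17-fold lower), and 9281 in CD30high and 12309 in CD30low Th1 cells. Xaf1, which promotes apoptosis, had 442 in CD30high and 2467 in CD30low Th17 cells (5.59-fold lower). The Schlafen genes Slfn1 and Slfn2, which restrain T cell growth, were 4.45-fold and 3.07-fold lower. In each of these 4 genes the CD30high Th17 array was the dimmest of the 4. Ifnar1 was 2.07-fold lower, with 693 in CD30high and 1436 in CD30low Th17 cells, and a further probe set had 164 and 437.5. Ifnar2, the gene of the other type I receptor chain, was under the rule. It had 747 in CD30high and 970 in CD30low Th17 cells, and 1041 in CD30high and 1411 in CD30low Th1 cells. Socs3 was 2.06-fold lower, and its 2 further probe sets were 1.72-fold and 1.98-fold lower, which is under the rule. In the Th1 comparison no pathway gene passed the rule, against 1.1% of all measured genes. Between the lineages 4 pathway genes were higher and 3 lower in Th17 cells among CD30low cells (18.9% of 37, against 8.25% of all measured genes), and 4 were higher and 8 lower among CD30high cells (32.4%, against 10.6%).

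Where members had further probe sets with a mean signal of at least 200, these mostly had the same direction as the brightest. In the Th17 comparison of CD30high with CD30low cells 12 of 14 did, with Gbp2 and Samhd1 each having 1 probe set in the other direction. In the Th1 comparison the 2 exceptions were both probe sets of Samhd1. Between the lineages 13 of 14 had the same direction among CD30low cells, with Zbp1 as the exception. Among CD30high cells 12 of 14 did, with Ddx58 and Gbp2 as the exceptions.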

How the data were processed

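RNA of 4 sorted T helper populations was measured on Affymetrix mouse expression arrays, 1 array per group. The intensity values deposited by the authors are probe set signals on a linear scale. Expression Console is named in the submitters' processing notes, and the methods name the scanner's GeneChip Operating Software. The version, summary algorithm and scaling target were not given in the sources used here. Means without the lowest and highest 2% of signals were 496.6 to 497.0, so the arrays appear to have been scaled to 1 target, which would hide a shift shared by most genes. Precision is limited by the 4 arrays.

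Of 45037 probe sets, 34945 had a single gene symbol, of which 34741 were updated through gene identifiers to RefSeq (GRCm38.p6), 932 had several symbols and 9160 were unnamed here. The brightest probe set of each gene was used, signals below 100 were set to 100, and log2 ratios were taken. No present calls were applied. No p-value was computed, because every group held 1 array. All members past the rule in any comparison, and members whose probe sets disagree, are given with their signals; others that illustrate a role were named after their values were seen; of the pathway genes, those past the rule in a CD30 comparison and the ligands and receptors are named, and Socs1 was added after its values were seen. The members and lists were chosen with earlier results of these data known, and the gene lists were split into types by general knowledge. Alternatives covered scaling, floor, fold and signal limits, the measured limit and the choice of probe set. Scripts ran under Python 3.11.15 with pandas 2.3.3, numpy 2.4.6 and matplotlib 3.10.9.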

Additional observations from a re-analysis of the deposited data

Results flagged for a closer look

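Isg20 stood out because its ratios had opposite directions under the same contrast, each larger than 2 SD of the ratios between probe sets of 1 gene. The log2 ratio of CD30high over CD30low cells was -1.86 in Th17 cells and 0.63 in Th1 cells. The log2 ratio of Th17 over Th1 cells was -1.82 among CD30high cells and 0.67 among CD30low cells. Both pairs come from the same 4 signals, Isg20 had a single named probe set, and the difference between the groups was not tested.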

How the results depend on the processing

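No paired analysis was possible because each group held 1 array and the labels carry no replicate numbers, and for the same reason no replicate could be left out. With the arrays centred on their median, quantile normalized, or floored at 50 or 200, the same members were past the rule in each of the 4 comparisons. The counts moved with the limits themselves. In Th1 cells the 2 members past the rule (CD30high against CD30low) became 6 with a limit of 1.5-fold, 1 with 3-fold and 0 when a mean signal of 500 was required, because Rtp4 and Calhm6 are dimmer than that. In Th17 cells the 8 members remained 8 at 3-fold, and Rtp4 and Calhm6 dropped out at a mean signal of 500. The lineage counts were 14 at 1.5-fold and 3 at 3-fold among CD30low cells (6 at 2-fold), and 16 and 4 among CD30high cells (7 at 2-fold). The type I medians of Th17 over Th1 cells were the least settled. Among CD30high cells the main value of -0.34 became -0.04 with a floor of 200, -0.16 after quantile normalization and -0.47 with a floor of 50 or a mean signal of 500, and among CD30low cells -0.09 became 0.06 with a mean signal of 500. The GTPase medians of the same comparisons ranged between -0.84 and -0.76 and between -0.70 and -0.59. The type I medians of CD30high over CD30low cells ranged between -0.56 and -0.42 in Th17 and between -0.40 and -0.32 in Th1 cells. Of 138 alternative ratios of called members, 12 moved by more than that SD and none changed direction; 9 of these came from another floor, as with Rtp4 in Th17 cells at -4.07 with a floor of 50 and -2.07 with a floor of 200. Averaging probe sets gave -2.12 in place of -3.77 for Ifi209 in Th17 cells and added Gbp6 to the members lower in Th17 cells among CD30high cells. At their low signals the 9 members that were named but not measured allow no statement.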
